A study of Mus musculus with 8 samples.

Results

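Levels of 40 cell cycle genes were compared across 8 mouse adrenal glands, taken as a fixed list of symbols from the 18846 symbols in the files. The list held 22 mitosis genes (Mki67, Top2a, Cdk1, Ccnb1, Ccnb2, Ccna2, Cdc20, Bub1, Bub1b, Aurka, Aurkb, Plk1, Birc5, Cenpe, Cenpf, Kif11, Kif20a, Kif23, Tpx2, Nusap1, Prc1 and Ttk) and 18 replication genes (Mcm2, Mcm3, Mcm4, Mcm5, Mcm6, Mcm7, Pcna, Rrm1, Rrm2, Tyms, Tk1, Gins2, Ccne1, Ccne2, E2f1, Cdc6, Cdt1 and Uhrf1). All 40 were among the 15361 genes that passed the filter on low counts and were tested. Each library came from 1 gland of 1 animal of the 129SVEV strain, either wild type or Siah1a-/-, a knockout of the gene for the ubiquitin ligase SIAH1A. In each genotype, 2 animals were untreated and 2 were given ACTH (adrenocorticotropic hormone, a pituitary signal for glucocorticoid production) intraperitoneally at 100 µg/kg for 1 h. Each of the 4 groups had 1 animal labelled male and 1 labelled female. Ages are not given in the labels, untreated animals are described with no vehicle injection, and the labels do not say how much of Siah1a is deleted.

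A dividing cell copies its DNA in S phase and separates the copies in mitosis, and each step has its own set of periodically transcribed genes. Replication genes are switched on around the G1/S transition by E2F transcription factors, while mitosis genes peak later, in G2 and M phase, through CHR and CCAAT promoter elements bound by the DREAM and MMB complexes and by NF-Y. In the adrenal cortex, dividing cells lie mostly under the capsule, and their descendants replace the steroid-making cells further in.

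The promoters of the 2 sets are shown first, since they differ in these letters. The RefSeq promoter table (build GRCm38.p6) held a window of 250 bases before to 50 bases after the start for 33 of the 40 genes, 18 of mitosis and 15 of replication. Letters were searched on both strands: CHR-type TTTGAA, E2F-type TTTCCCGC, TTTGGCGC, TTTCGCGC and TTTGCCGC, and CCAAT. E2F-type matches on opposite strands can overlap each other, as in Mcm5 and Mcm6. The sequences below run 5′ to 3′ up to the annotated start, without bases that lie inside the gene. Capitals mark CHR-type and E2F-type letters. They were chosen for the mitosis genes Mki67, Top2a, Cdk1 and Cdc20, which carry TTTGAA before the start, for Mcm5 and Mcm6, which carry E2F-type letters, and for Rrm2, which has the lowest genotype p-value of the 40 genes.
Mki67 (chr7:135716451-135716579, - strand): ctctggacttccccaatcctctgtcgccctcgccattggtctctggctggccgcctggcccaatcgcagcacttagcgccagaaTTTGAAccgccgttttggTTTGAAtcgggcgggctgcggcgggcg
Top2a (chr11:99024200-99024389, - strand): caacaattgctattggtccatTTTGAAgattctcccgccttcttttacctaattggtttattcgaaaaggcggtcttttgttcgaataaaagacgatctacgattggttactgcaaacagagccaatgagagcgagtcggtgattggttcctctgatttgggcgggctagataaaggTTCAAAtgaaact
Cdk1 (chr10:69352913-69353112, - strand): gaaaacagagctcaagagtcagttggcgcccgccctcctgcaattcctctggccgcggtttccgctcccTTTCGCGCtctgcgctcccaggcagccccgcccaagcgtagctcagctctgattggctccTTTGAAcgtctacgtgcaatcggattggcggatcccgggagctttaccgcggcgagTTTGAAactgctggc
Cdc20 (chr4:118437344-118437543, - strand): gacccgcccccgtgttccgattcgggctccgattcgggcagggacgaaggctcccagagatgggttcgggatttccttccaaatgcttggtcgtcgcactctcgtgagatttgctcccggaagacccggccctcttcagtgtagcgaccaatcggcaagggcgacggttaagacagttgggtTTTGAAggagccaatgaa
Mcm5 (chr8:75109309-75109467, + strand): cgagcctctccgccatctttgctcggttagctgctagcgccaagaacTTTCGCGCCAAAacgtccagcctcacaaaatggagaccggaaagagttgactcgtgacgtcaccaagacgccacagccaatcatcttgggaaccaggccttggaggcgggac
Mcm6 (chr1:128359706-128359905, - strand): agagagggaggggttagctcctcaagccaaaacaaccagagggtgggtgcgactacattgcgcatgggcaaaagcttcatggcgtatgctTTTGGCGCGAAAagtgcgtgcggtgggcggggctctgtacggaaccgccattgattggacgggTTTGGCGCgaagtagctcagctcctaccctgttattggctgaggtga
Rrm2 (chr12:24708054-24708253, + strand): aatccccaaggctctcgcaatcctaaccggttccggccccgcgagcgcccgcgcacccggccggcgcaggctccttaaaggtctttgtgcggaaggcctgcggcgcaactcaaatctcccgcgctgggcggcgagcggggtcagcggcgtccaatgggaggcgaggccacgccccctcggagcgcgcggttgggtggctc

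CHR-type letters were found in 13 of 18 mitosis windows (72.2%) and 1 of 15 replication windows (6.67%), that of Mcm2, against 18.1% of the 27025 genes in the table. E2F-type letters were found in 6 of 15 replication windows (40%), those of Mcm3, Mcm5, Mcm6, Mcm7, Cdc6 and Cdt1, and in 1 of 18 mitosis windows (5.56%), that of Cdk1, against 2.32% of all genes. CCAAT letters were found in 16 of 18 mitosis windows (88.9%) and 9 of 15 replication windows (60%), against 37.9% of all genes. Many TTTGAA matches lay just after the annotated start. With only the bases before it, 6 of 18 mitosis windows (33.3%) had one, against 16.3% of all genes. E2F-type letters were then found in 4 of 15 replication windows (26.7%), against 1.91% of all genes. These counts describe letters in the windows and show no binding in these glands.

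**Figure D1:**
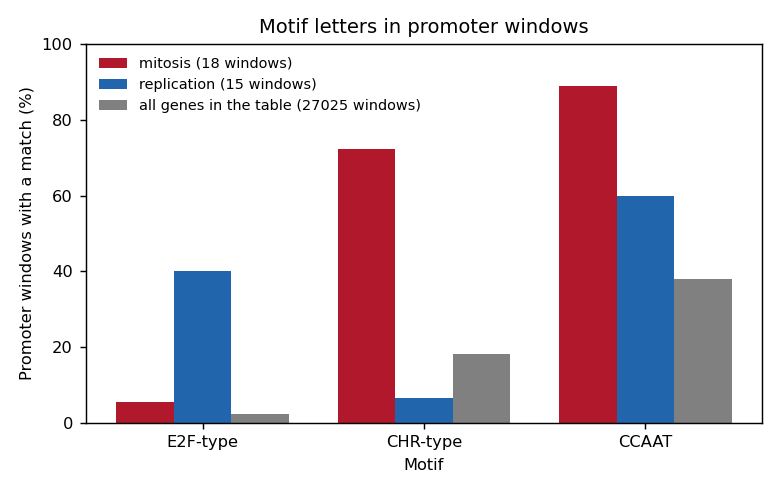
Share of promoter windows (%, vertical axis) with at least 1 match to E2F-type, CHR-type or CCAAT letters, for 18 mitosis genes, 15 replication genes and all 27025 genes in the table. The CHR-type bar is highest for mitosis genes (72.2%) and the E2F-type bar is highest for replication genes (40%).

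The libraries held 8020112 to 29568945 estimated counts. All 7 steroidogenic markers, such as Star and Cyp11a1, were detected in every library, with summed levels of 26920 to 51150 CPM (reads of a gene relative to the scaled total of its library). Siah1a itself was at 29.4 ± 3.77 CPM in wild-type glands and 20.7 ± 3.37 CPM in Siah1a-/- glands (SD, n = 4 each; log2 difference -0.52, SE 0.23, adjusted p = 0.383), so transcripts of the locus were still counted. Some libraries stood apart. The wild-type untreated library labelled male had Xist at 387 CPM and 4 Y-linked genes summing to 3.05 CPM, which goes against its label, and kidney markers summing to 1456 CPM (at most 8.68 elsewhere). Those Y-linked genes summed to 23.5 CPM in the wild-type ACTH library labelled female (0 to 3.90 CPM in the others labelled female). Xist was at 31.8 CPM in the wild-type ACTH library labelled male (4.05 and 5.97 CPM in the Siah1a-/- libraries labelled male). The wild-type ACTH library labelled female had liver markers summing to 60770 CPM (at most 671 elsewhere), and the Siah1a-/- ACTH library labelled male had Schwann and neuron markers summing to 259 CPM (28.3 to 55.9 elsewhere). In the wild-type untreated library labelled male and the Siah1a-/- ACTH library labelled male, 25 and 9 genes were at 0 that reached at least 5 CPM in each of the other libraries, and no other library had such a gene. Values with and without these libraries are given where a result turned on them.

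In 3 of the 4 Siah1a-/- glands both sets lay below every wild-type gland, and the mitosis genes lay lower than the replication genes. In the wild-type glands the mean level of the mitosis genes was 4.35 ± 0.37 and that of the replication genes 4.29 ± 0.34 on the log2 CPM scale (SD, n = 4). In the Siah1a-/- glands they were 2.42 ± 1.46 and 3.12 ± 0.78 (SD, n = 4). The Siah1a-/- ACTH library labelled female was the exception: its means of 4.27 and 4.17 lay within the wild-type range.

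By library, the mitosis mean in wild type was 4.03 and 4.26 in the untreated glands labelled male and female, and 4.24 and 4.89 in the ACTH glands labelled male and female. In Siah1a-/- glands, in the same order, it was 1.88, 2.70, 0.81 and 4.27. For the replication genes the wild-type means were 3.88, 4.40, 4.20 and 4.68, and the Siah1a-/- means were 2.64, 3.22, 2.44 and 4.17. The difference of replication minus mitosis therefore stood near 0 in each wild-type library (-0.20 to 0.14) and in the Siah1a-/- ACTH library labelled female (-0.10). In the other 3 Siah1a-/- libraries it was 0.75, 0.53 and 1.63. Its group means were -0.06 ± 0.15 and 0.70 ± 0.72 (SD, n = 4 each), a gap of 0.77 that was about as large as the spread among Siah1a-/- glands. Among the 30 genes with at least 10 counts in every library (16 mitosis, 14 replication), the gap was 0.92. No p-value is given for these means, because the genes were chosen with results of these data known.

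**Figure D2:**
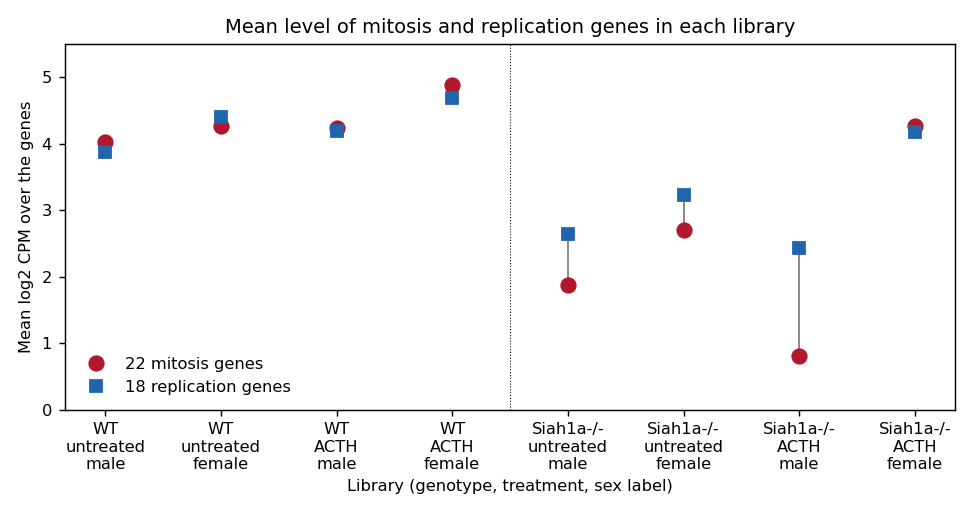
Mean log2 CPM (vertical axis) of the 22 mitosis genes (red circles) and the 18 replication genes (blue squares) in each of the 8 libraries, with a grey line joining the pair. The symbols nearly coincide in the wild-type libraries and in the Siah1a-/- ACTH library labelled female, and the circle lies below the square in the other 3 Siah1a-/- libraries.

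Gene by gene, no member passed the adjusted threshold for genotype in edgeR's quasi-likelihood test over all 8 libraries (0 of 40, against 0.026% of all genes tested). All 40 estimates were below 0, where 8220 of the 15361 genes tested were. The 40 genes share the same 8 libraries, so their directions are not independent of each other. At an unadjusted p under 0.05, 18 of 40 were lower in Siah1a-/- glands (13 mitosis and 5 replication genes) and 0 were higher, where 8.11% of all genes tested were lower and 5.33% higher at that level. The median log2 difference was -1.67 over the mitosis genes and -0.75 over the replication genes, against -0.04 over all genes tested. The smallest adjusted p among the 40 was 0.0997, for Rrm2. DESeq2 called 11 of the 40 lower (8 mitosis and 3 replication genes, against 3.89% of all genes called lower and 6.07% called in either direction), namely Bub1, Top2a, Kif20a, Kif11, Ccna2, Cdc20, Cenpf, Mki67, Rrm2, Mcm5 and Ccne2. limma-voom called Rrm2 alone (adjusted p = 0.0416; 0.371% of all genes called lower). In 8 genes all 4 Siah1a-/- libraries lay below all 4 wild-type libraries: Bub1, Bub1b, Kif20a, Mcm5, Tk1, Cdc6, E2f1 and Ccne2, against 4.71% of all genes. Without the Siah1a-/- ACTH library labelled female this held for 24 of 40 genes, 18 of mitosis and 6 of replication, against 8.31% of all genes, and edgeR again called 0 of the 40 (0% of all genes). That library was the highest Siah1a-/- library in 37 of the 40 genes. Leaving it out therefore raises the count among the members by itself, and no conclusion is drawn from the rise. Without it the median log2 differences were -2.35 and -0.88. Without the 2 wild-type libraries with kidney or liver transcripts they were -1.49 and -0.85, and without the Siah1a-/- ACTH library labelled male -1.23 and -0.49. Leaving out the Siah1a-/- untreated library labelled female left 8 of 40 genes lower at an unadjusted p under 0.05. In whole-gland RNA, fewer dividing cells and less of these transcripts per cell cannot be told apart.

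**Figure D3:**
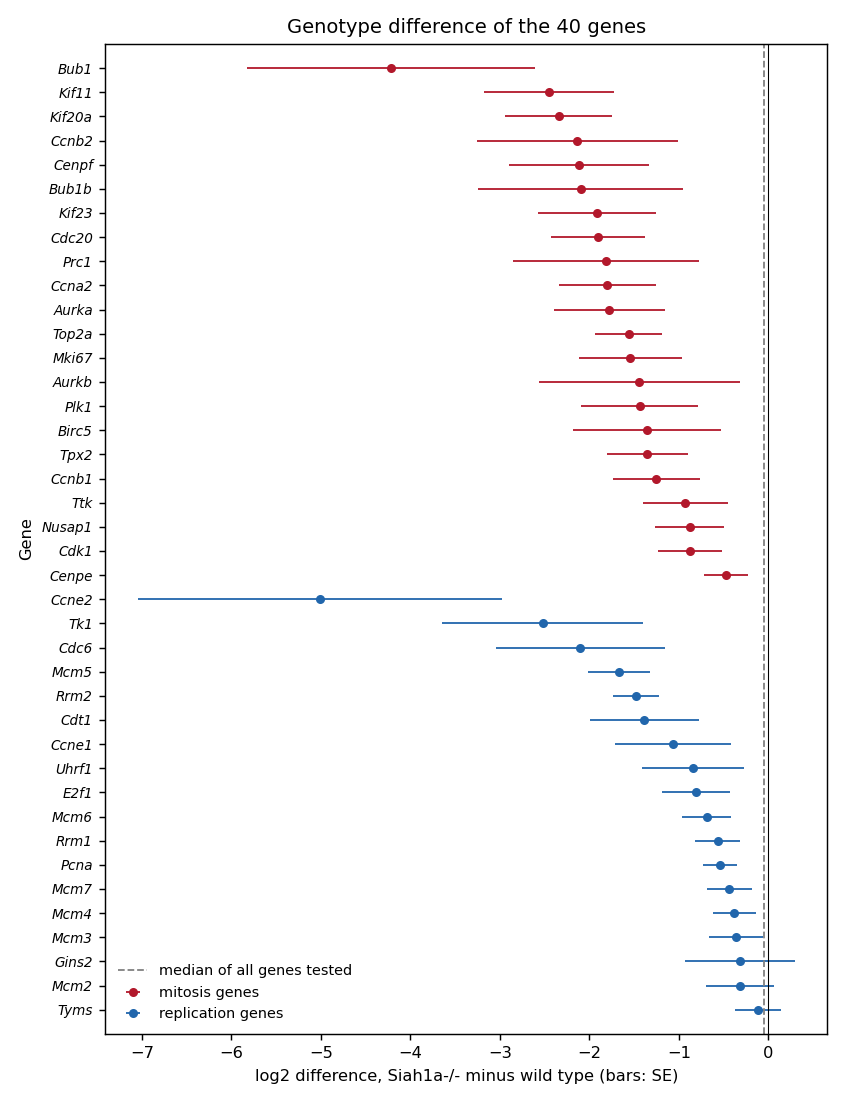
Log2 difference of Siah1a-/- minus wild type (horizontal axis; points, with bars of 1 SE from edgeR) for each of the 40 genes, mitosis in red and replication in blue. All 40 points lie left of 0, from -0.12 for Tyms to -5.01 for Ccne2, and the dashed line marks the median of all genes tested (-0.04).

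In what follows, CPM values run in a fixed order: untreated labelled male, untreated labelled female, ACTH labelled male, ACTH labelled female. The mitotic entry group holds the kinases and cyclins that start and drive M phase: Cdk1, its cyclins Ccnb1, Ccnb2 and Ccna2, and the kinases Aurka, Aurkb and Plk1. Its median log2 genotype difference was -1.44, from -2.13 for Ccnb2 to -0.87 for Cdk1. Ccna2, the cyclin that acts in S phase and at mitotic entry, measured 39.9, 38.5, 35.8 and 51.1 CPM in wild type and 8.89, 6.74, 4.76 and 36.5 CPM in Siah1a-/- glands. Of the Siah1a-/- libraries, 3 were below the lowest wild-type value and the ACTH library labelled female was just inside the wild-type range (log2 difference -1.80, SE 0.54, adjusted p = 0.224). Cdk1, the kinase that triggers mitosis, measured 16.1, 28.6, 23.1 and 40.2 CPM in wild type and 8.76, 21.1, 5.26 and 33.7 CPM in Siah1a-/- glands, and the groups overlapped. Its female-labelled libraries exceeded the male-labelled ones in each combination of genotype and treatment. These combinations include the untreated wild-type library labelled male, which went against its sex label. Ccnb2 and Aurkb were listed at 0 in the Siah1a-/- ACTH library labelled male.

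The checkpoint and anaphase group watches chromosome attachment and releases sister chromatids: Cdc20, Bub1, Bub1b, Ttk, Cenpe, Cenpf and Birc5. Its median log2 difference was -1.90, with Cenpe the closest to 0 (-0.47). Cdc20, the activator of the anaphase-promoting complex, measured 12.2, 15.7, 14.8 and 31.9 CPM in wild type and 3.65, 2.43, 2.2 and 13.5 CPM in Siah1a-/- glands (log2 difference -1.90, SE 0.53, adjusted p = 0.201). Cenpf, a kinetochore protein, measured 22.6, 28.9, 31.5 and 38.4 CPM in wild type and 2.65, 10.9, 1.07 and 36.4 CPM in Siah1a-/- glands. In both genes the Siah1a-/- ACTH library labelled female lay within the wild-type range, at 0.726 (Cdc20) and 1.2 (Cenpf) of the wild-type mean. The other 3 were lower than every wild-type library. Bub1, a checkpoint kinase, had no overlap: 13.3, 15.5, 9.91 and 15.8 CPM in wild type against 0, 3.08, 0 and 7.27 CPM in Siah1a-/- glands. A count of 0 is limited by the depth of these libraries, and the log2 difference of -4.22 (SE 1.61) depends on the prior count. Cenpe, the kinetochore motor, overlapped in part, with 14.9, 21.6, 22.3 and 32.7 CPM in wild type against 8.63, 13.3, 17.1 and 31.8 CPM in Siah1a-/- glands. The untreated Siah1a-/- glands lay below the wild-type range and the ACTH-treated ones within it.

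The last mitosis group builds the spindle and midzone or shapes chromosomes: the motors Kif11, Kif20a and Kif23, the microtubule binders Tpx2, Nusap1 and Prc1, and the chromosome proteins Top2a and Mki67. Its median log2 difference was -1.69. Mki67, the coat protein of mitotic chromosomes used as a proliferation marker, measured 66.0, 68.7, 73.6 and 115 CPM in wild type and 19.2, 27.4, 5.61 and 87.4 CPM in Siah1a-/- glands (log2 difference -1.54, SE 0.57). Top2a, the topoisomerase that untangles sister chromatids, measured 66.0, 67.9, 74.4 and 103 CPM in wild type and 15.9, 22.1, 14.5 and 72.7 CPM in Siah1a-/- glands (log2 difference -1.56, SE 0.38, adjusted p = 0.158). Both genes were steady across 3 wild-type glands, highest in the wild-type ACTH gland labelled female, and at most 27.4 CPM in 3 Siah1a-/- glands. Kif20a, a kinesin of the cleavage midzone, measured 24.6, 17.4, 19.9 and 34.1 CPM in wild type and 3.65, 4.14, 1.35 and 13.1 CPM in Siah1a-/- glands, without overlap (log2 difference -2.34, SE 0.60, adjusted p = 0.180). Kif11, the motor that pushes spindle poles apart, measured 29.6, 22.5, 21.0 and 34.4 CPM in wild type and 1.92, 3.90, 2.2 and 23.7 CPM in Siah1a-/- glands. Prc1, which bundles midzone microtubules, had 0.0711 CPM in the Siah1a-/- ACTH library labelled male and 24.3 to 41.8 CPM in wild type.

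**Figure D4:**
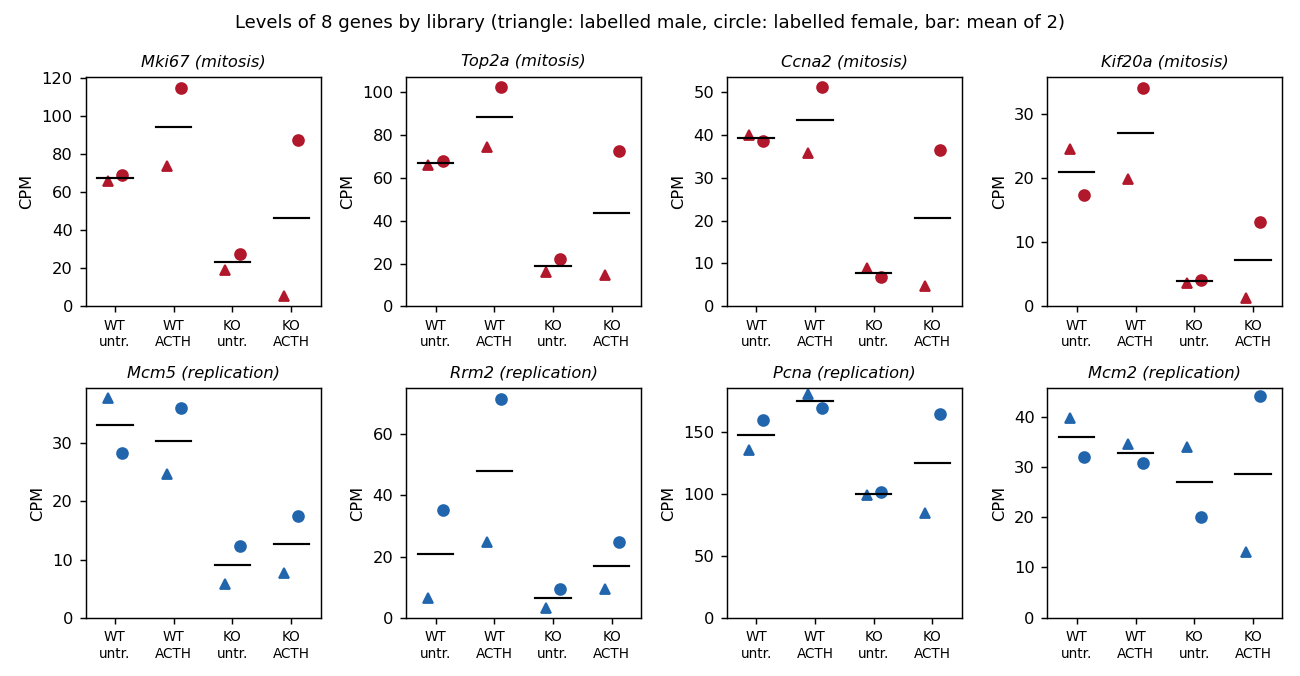
CPM (vertical axes, from 0) of 4 mitosis genes (top row) and 4 replication genes (bottom row) in the 4 groups, with triangles for libraries labelled male, circles for libraries labelled female and bars for the mean of 2. In the top row the Siah1a-/- ACTH circle stands apart from the other 3 Siah1a-/- libraries, while Mcm5 is lower in all 4 and Mcm2 overlaps wild type.

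The MCM helicase subunits, which unwind DNA at the fork as a ring, had the smallest median log2 difference of the groups, -0.41. Mcm2, Mcm3, Mcm4 and Mcm7 lay between -0.43 and -0.32 and overlapped between genotypes. Mcm2, for example, measured 39.8, 32.0, 34.7 and 30.9 CPM in wild type and 34.0, 20.1, 13 and 44.1 CPM in Siah1a-/- glands. Mcm5 had the lowest estimate of the 6 subunits. It measured 37.8, 28.3, 24.7 and 36.0 CPM in wild type and 5.84, 12.2, 7.75 and 17.4 CPM in Siah1a-/- glands (log2 difference -1.66, SE 0.35, adjusted p = 0.132). All 4 Siah1a-/- libraries were below the wild-type range, including the ACTH library labelled female in which the other 5 subunits reached wild-type levels. Whether Mcm5 differed from the other subunits was not tested. Mcm6 was intermediate, at 35.9 ± 14.6 CPM in wild-type glands and 23.0 ± 15.1 CPM in Siah1a-/- glands (SD, n = 4; log2 difference -0.69, SE 0.27).

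Of the licensing, clamp and chromatin genes (median log2 difference -0.84), Pcna, the sliding clamp of the polymerases, was the most abundant. It measured 135, 160, 180 and 169 CPM in wild type and 99.1, 101, 84.6 and 165 CPM in Siah1a-/- glands (log2 difference -0.54, SE 0.19, adjusted p = 0.270). Of the Siah1a-/- libraries, 3 were below the wild-type range and the ACTH library labelled female was in it. Cdc6, which loads the helicase on origins, was low throughout, at 4.42 ± 0.89 CPM in wild-type glands and 1.24 ± 0.83 CPM in Siah1a-/- glands (SD, n = 4), without overlap. Its partner Cdt1 was at 7.81 ± 3.39 and 4.36 ± 4.33 CPM, Uhrf1, which links replication to DNA methylation, at 13.1 ± 4.82 and 8.56 ± 7.70 CPM, and Gins2, a subunit of the active helicase, at 5.61 ± 1.37 and 5.47 ± 4.15 CPM (SD, n = 4), each with overlap.

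The deoxynucleotide genes had a median log2 difference of -1.03. Rrm2, the S-phase subunit of ribonucleotide reductase, measured 6.46, 35.1, 24.8 and 71.6 CPM in wild type and 3.19, 9.49, 9.45 and 24.6 CPM in Siah1a-/- glands (log2 difference -1.48, SE 0.26, adjusted p = 0.0997). It was lower in the Siah1a-/- gland than in the wild-type gland in each of the 4 combinations of treatment and sex label, higher after ACTH in each of the 4 combinations of genotype and sex label, and higher in the gland labelled female in each of the 4 combinations of genotype and treatment. Each of these counts includes the untreated wild-type library labelled male, which went against its sex label. The same directions held in every combination for Cenpe and Cdt1, and the share of all genes with this pattern was not counted. Rrm1, the large constitutive partner of Rrm2, was at 61.9 ± 13.1 CPM in wild-type glands and 41.2 ± 13.2 CPM in Siah1a-/- glands (SD, n = 4). Tyms, which makes thymidylate, was at 23.8 ± 5.13 and 21.6 ± 2.58 CPM and had the estimate closest to 0 of all 40 genes (-0.12, SE 0.26). Tk1, the salvage kinase for thymidine, measured 8.46, 9.62, 10.6 and 17.2 CPM in wild type and 1.19, 4.95, 0 and 6.66 CPM in Siah1a-/- glands.

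The G1/S control group holds E2f1, the transcription factor, and the cyclins Ccne1 and Ccne2 that activate Cdk2, and its median log2 difference was -1.07. E2f1 measured 12.9, 16.4, 10.2 and 11.4 CPM in wild type and 7.17, 5.92, 5.83 and 9.80 CPM in Siah1a-/- glands, a narrow gap without overlap (log2 difference -0.81, SE 0.38). Ccne2 was at 7.05, 8.75, 6.69 and 10.5 CPM in wild-type glands and at 0, 0, 0 and 5.51 CPM in Siah1a-/- glands. Among untreated glands the wild-type mean of Ccne2 was 72.1 times a floor of 3 counts over the Siah1a-/- group (0.11 CPM). That bound covers counting error only and not the spread between animals. The gene was not called by edgeR among untreated glands (SE 2.99, adjusted p = 0.892). Ccne1 overlapped, at 7.21 ± 4.65 and 3.15 ± 1.53 CPM (SD, n = 4). Per length, on the authors' RPKM scale, Pcna had the highest mean level in wild type (108) and Cdc6 the lowest (0.820). Of the 40 genes, 11 overlap another protein-coding gene counted in these files, and since nothing in the labels says how strand was handled their values are uncertain: Ccna2, Cdc20, Aurka, Kif20a, Nusap1, Prc1, Mcm7, Tk1, Gins2, Ccne2 and E2f1.

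In glands that shared treatment and sex label, the mitosis genes were lower in Siah1a-/- in nearly every single gene. In the untreated glands labelled male, 22 of 22 mitosis genes were lower with a median log2 difference of -1.92, and 15 of 18 replication genes were lower with a median of -0.54. For the untreated glands labelled female the values were 22 of 22 and -1.42, and 17 of 18 and -0.90. After ACTH they were 22 of 22 and -2.89, and 18 of 18 and -1.33, in the glands labelled male. In the ACTH glands labelled female they were 21 of 22 and -0.49, and 13 of 18 and -0.25. Of all genes tested, 46.2%, 51.3%, 53.3% and 52.8% were lower in Siah1a-/- in these pairings, in the order given. Each pairing sets 1 gland against 1 gland, so the genes counted in it are not independent of each other. The set medians lay below the median of all genes in each pairing (-0.07 to 0.003), and the mitosis median lay below the replication median in each. The labels do not state kinship between these animals, and the first pairing rests on the wild-type library that went against its sex label.

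**Figure D5:**
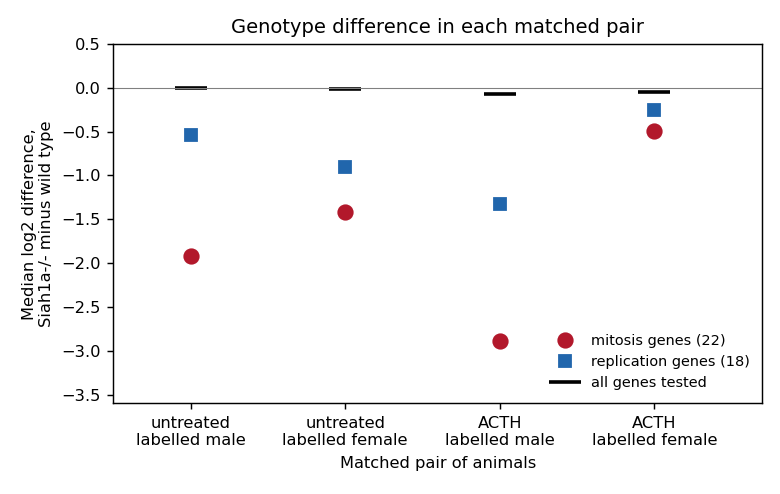
Median log2 difference of Siah1a-/- minus wild type (vertical axis) over the mitosis genes (circles), the replication genes (squares) and all genes tested (black dashes), for the 4 pairs of glands with the same treatment and sex label. The circle lies below the square in each pair, and both lie closest to 0 in the ACTH pair labelled female.

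The Siah1a-/- ACTH library labelled female was at or above the lowest wild-type library in 31 of 40 genes and was the highest Siah1a-/- library in 37. Its ratio to the wild-type mean had a median of 0.909 over the mitosis genes and 0.943 over the replication genes. For the mean of the other 3 Siah1a-/- libraries the medians were 0.226 and 0.498. The Siah1a-/- ACTH library labelled male was the lowest of all 8 in 30 genes, and the wild-type ACTH library labelled female was the highest of all 8 in 28. Several marker sums also differed between libraries. Chromaffin markers summed to 6022 to 7361 CPM in the 3 low Siah1a-/- libraries and to 1798 CPM in the other, against 1995 to 3986 CPM in wild type. X-zone markers (the inner cortical zone of the young mouse) summed to 8907 and 2390 CPM in the untreated Siah1a-/- glands labelled female and male, to 939 and 1417 CPM in the Siah1a-/- glands labelled male and female after ACTH, and to 7367 to 14920 CPM in wild type. The X-zone sum of the Siah1a-/- ACTH library labelled female lay within the wide range of the low Siah1a-/- libraries (939 to 8907 CPM). Glomerulosa and capsule markers summed to 1424 CPM in that library, 862 to 1082 CPM in the other Siah1a-/- libraries and 483 to 872 CPM in wild type. Its adipocyte sum (4215 CPM, against 1481 to 3610 elsewhere) and its fibroblast sum (1060 CPM, against 473 to 1006 elsewhere) were the highest of the 8. Lymphocyte markers were near the detection limit (2.19 to 12.6 CPM), while erythroid markers (591 to 983 CPM) and macrophage markers (79.0 to 147 CPM) overlapped between genotypes. Their part in the genotype differences was not tested.

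Within a treatment the same order held, with wider errors. Among untreated glands 0 of 40 genes were called by edgeR (0% of all genes), 10 were lower at an unadjusted p under 0.05 (2.64% of all genes), and the medians were -1.85 for mitosis and -0.63 for replication genes. That count was 4 without the untreated Siah1a-/- library labelled female and 4 without the untreated wild-type library labelled male. It was 19 and 17 without the Siah1a-/- ACTH libraries labelled male and female. Without the 2 wild-type libraries with kidney or liver transcripts it was 2 and the mitosis median -0.79, and without the untreated wild-type library labelled male alone the mitosis median was -1.14. The replication median was -1.09 without the untreated Siah1a-/- library labelled male and -0.39 without the one labelled female. After ACTH 0 of 40 were called (0.00651% of all genes), 3 were lower and 0 higher at that level (5.42% and 2.81% of all genes), the former being Rrm2, Mcm5 and Kif20a, and the medians were -1.44 and -0.67. That count was 1 without the Siah1a-/- library labelled male and 0 without the wild-type library labelled male. Without the Siah1a-/- ACTH library labelled female, 26 genes were lower and the medians were -3.20 and -1.21, and without the Siah1a-/- ACTH library labelled male the medians were -0.47 and -0.27. Each of these rests on 1 Siah1a-/- gland after ACTH, assumed to vary like the others. The interaction of genotype and treatment gave 0 of 40 called (0% of all genes) and 0 at an unadjusted p under 0.05 (1.26% of all genes lower and 0.579% higher), so the genotype difference was not shown to differ between treatments. Its mitosis median of 0.45 ran from -1.31 without the Siah1a-/- ACTH library labelled female to 1.36 without the one labelled male. It was also below 0 without the untreated wild-type library labelled male (-0.57) and the untreated Siah1a-/- library labelled female (-0.22). Its replication median of 0.02 ran from -0.43 to 0.52 over the same left-out ACTH libraries.

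At 1 h after ACTH no member was called on average over genotypes (0 of 40, against 0.0195% of all genes). The median log2 difference was 0.55 for mitosis genes and 0.19 for replication genes, against 0.02 for all genes, and without the Siah1a-/- ACTH library labelled female they were -0.09 and -0.004, while without the Siah1a-/- ACTH library labelled male they were 0.94 and 0.39. At an unadjusted p under 0.05, 2 genes were higher (3.49% of all genes): Rrm2 (log2 difference 1.45, SE 0.26, adjusted p = 0.480) and Cenpe (0.86, SE 0.25, adjusted p = 0.719). The number was 11 without the Siah1a-/- ACTH library labelled male, 6 without the untreated wild-type library labelled male and 4 without the untreated Siah1a-/- library labelled male. None was lower at that level (2.62% of all genes), and in none did all 4 ACTH libraries lie below (1.8% of all genes) or above (2.1%) all 4 untreated ones. In wild type, 0 were called (0% of all genes) and Rrm2 alone was higher at an unadjusted p under 0.05 (1.97% of all genes), with medians of 0.42 and 0.23. The mitosis median was -0.15 without the untreated library labelled female and 1.12 without the untreated library labelled male. The replication median was -0.12 without the ACTH library labelled male and 0.53 without the ACTH library labelled female. In Siah1a-/- glands, 0 were called (0% of all genes) and Rrm2, Cenpe and Ccne2 were higher and 0 genes lower at that level (1.96% and 2.27% of all genes), with medians of 0.92 and 0.17. Without the ACTH library labelled female the medians in Siah1a-/- glands were -0.75 and -0.22, and without the ACTH library labelled male they were 1.73 and 0.83. The replication median was -0.01 without the untreated library labelled female and 0.58 without the untreated library labelled male, so neither direction held over all left-out libraries.

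The glands labelled female lay above those labelled male in all 40 estimates, where 8551 of the 15361 genes tested had estimates above 0. None was called (0 of 40, against 0.026% of all genes), and 8 were higher at an unadjusted p under 0.05 (1.78% of all genes higher and 1.33% lower): Rrm2, Mcm6, Cdk1, Mcm3, Nusap1, Cdt1, Cenpe and Tpx2. The medians were 0.99 for mitosis and 0.59 for replication genes, against 0.05 for all genes. Without the library that went against its label, 15 genes were higher at that level and the medians were 1.19 and 0.94. Without the Siah1a-/- ACTH library labelled female, 4 were higher and the medians were 0.54 and 0.52. Without the Siah1a-/- ACTH library labelled male the mitosis median was 0.59. Mcm3 was the gene in which all 4 libraries labelled female lay above all 4 labelled male (0.976% of all genes).

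Other genes of the same machinery, in lists that leave out the 40 members, were read beside them, and none was called for genotype. Of 50 tested spindle, condensation and cytokinesis genes, 47 had estimates below 0, 13 were lower at an unadjusted p under 0.05 (8.11% of all genes tested were lower and 5.33% higher), and the median log2 difference was -1.29. Of 31 kinetochore and centromere genes, 28 were below 0, 5 were lower and 1 was higher, with a median of -1.07. Over all 15361 genes tested, 8220 estimates were below 0. The medians were -0.44 over 20 origin licensing and firing genes (0 lower and 0 higher), -0.43 over 35 replication fork genes (2 lower and 1 higher) and -0.19 over 18 nucleotide supply genes (4 lower and 1 higher). The G1 cyclin, E2F, RB and DREAM list (28 genes, 3 lower) had a median of -0.04, the same as all genes.

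The 3 most abundant genes of each list had log2 genotype differences between -0.64 (Hmgb2, a chromatin protein) and 1.36 (Trp53inp1), and none was called. Smc4, a condensin subunit, was at 196 ± 11.6 CPM in wild-type glands and 200 ± 76.8 CPM in Siah1a-/- glands, and Paics, a purine synthesis enzyme, at 384 ± 61.7 and 389 ± 28.8 CPM (SD, n = 4). Zwint, a kinetochore protein, was at 167 ± 30.2 and 303 ± 88.8 CPM (log2 difference 0.83, SE 0.22, adjusted p = 0.196), with every Siah1a-/- library above every wild-type one (4.21% of all genes). The 20 tested CDK inhibitors and p53 targets had a median of 0.18, with 2 lower and 4 higher at an unadjusted p under 0.05 (8.11% and 5.33% of all genes) and 0 called. Trp53inp1, a p53 target, was at 284 ± 135 CPM in wild-type glands and 698 ± 209 CPM in Siah1a-/- glands (log2 difference 1.36, SE 0.21, adjusted p = 0.0908). Btg1, an antiproliferative gene, was at 262 ± 99.1 and 608 ± 236 CPM (log2 difference 1.22, SE 0.21, adjusted p = 0.0997). Trp53inp1 and Btg1 both overlapped between genotypes. Their estimates were also higher after ACTH on average over genotypes (log2 differences 0.80, SE 0.21, and 0.92, SE 0.21), and neither was called. Cdkn1c, an inhibitor of cyclin-dependent kinases, was at 277 ± 55.3 and 325 ± 60.4 CPM.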

How the data were processed

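RNA from 8 adrenal glands was sequenced as single reads of 75 bases. The submitters' processing notes name the build mm10, Partek 6.6, Bowtie2 2.2.5.0, TopHat2 2.0.13 and FastQC 0.11, and the counting settings are not given in the sources used here. Per the file headers, the authors deposited an estimated count and an RPKM value (a read density per transcript length and library size) for each of 28678 transcripts. Here the estimated counts were summed per symbol and rounded, and the RPKM values were summed per symbol to rank genes by length-corrected level. Library totals were 8020112 to 29568945, and floors of 3 counts cover counting error only. Libraries correlated at 0.876 to 0.984 and none was a copy of another.

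Genes were filtered with filterByExpr (minimum count 10), scaled by TMM (factors 0.886 to 1.06) and tested with edgeR 4.0.16 (R 4.3.3) quasi-likelihood in 1 model of genotype, treatment and sex label, and in a model with the genotype by treatment interaction for comparisons within a group. Adjusted p-values are Benjamini-Hochberg over all 15361 genes, called under 0.05. The F statistic gave the standard errors. Log2 means used a prior count of 2. A p-value sets a difference against the spread left after the model terms, pooled over groups and shared in part across genes. It covers only variation between these animals. The scripts were tested on simulated data. Alternatives were DESeq2 1.42.0, limma-voom (limma 3.58.1), RLE factors, no filter, no sex term, the 4 libraries of a comparison alone, left-out libraries, another prior count, medians over members, members with at least 10 counts in every library, and a narrower promoter window. Values in every library were given for the most abundant members and those with the lowest genotype p of each role, and of each further list the 3 most abundant genes were taken, given by their range or by name. The members, lists and rules were chosen with earlier results of these data known.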

Additional observations from a re-analysis of the deposited data

Results flagged for a closer look

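In each genotype the highest and lowest of the 4 libraries were compared with the others by the gap to the nearest value as a share of the whole range (Dixon's ratio). Of 86 groups tested, 10 had a ratio above the critical value, each time for the highest library. Chance alone gives about 1 in 20 if values are normally distributed. That was not tested for these CPM values, which cannot fall below 0, so no conclusion is drawn from the number. In 8 of the 10 groups the Siah1a-/- ACTH library labelled female stood above the other 3 Siah1a-/- libraries. The ratios were 0.868 for Top2a, 0.870 for Ccna2, 0.872 for Cdc20, 0.837 for Aurka, 0.910 for Kif11, 0.860 for Kif23, 0.847 for Nusap1 and 1.000 for Ccne2, whose other 3 libraries were at 0. In the remaining 2 the wild-type ACTH library labelled female stood above the other wild-type libraries, with 0.845 for Mki67 and 0.847 for Ccne1. The genes share these libraries, so the ratios are not independent of each other. The same 2 libraries had chromaffin markers summing to 1798 and 2462 CPM and liver markers summing to 317 and 60770 CPM, and the part of either in the ratios was not tested.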

How the results depend on the processing

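The genotype medians of both sets stayed below 0, and within the spread between glands, under every alternative run: -2.35 to -1.23 for mitosis and -0.89 to -0.49 for replication genes. The gap between the sets kept its direction at 0.46 to 1.03. The counts of called genes moved most. With edgeR and all 8 libraries, genes called numbered 4 for the genotype average, 3 for the treatment average, 4 for the sex label, 1 for genotype after ACTH and 0 for the other comparisons, and members called numbered 0 in each. With DESeq2, the genes called over all tested numbered 932 for the genotype average, 123 for the treatment average, 21 for the sex label, 111 for genotype in untreated glands, 485 for genotype after ACTH, 37 for ACTH in wild type, 99 for ACTH in Siah1a-/- and 14 for the interaction. Under that setting, the members called numbered 11 for the genotype average, 1 for the treatment average, 1 for the sex label, 3 for genotype in untreated glands and 1 for genotype after ACTH. In that case, the members at an unadjusted p under 0.05 numbered 14 for the sex label, 19 for genotype in untreated glands and 9 for genotype after ACTH. With limma-voom, the genes called numbered 108 for the genotype average, 0 for the sex label and 12 for genotype after ACTH. There, the members called numbered 1 for the genotype average. Under that setting, the members at an unadjusted p under 0.05 numbered 4 for the treatment average and 6 for genotype after ACTH. With no filter on low counts, the genes called numbered 41 for the genotype average, 8 for the treatment average, 7 for the sex label, 11 for genotype after ACTH and 7 for ACTH in wild type. With no sex term, the genes called numbered 1 for the genotype average, 0 for the treatment average and 0 for genotype after ACTH. In that case, the members at an unadjusted p under 0.05 numbered 1 for the treatment average, 1 for genotype after ACTH and 0 for ACTH in wild type. With averages from the interaction model, the genes called numbered 0 for the treatment average and 1 for the sex label. With the 4 libraries of the comparison alone, the genes called numbered 27 for genotype in untreated glands, 26 for genotype after ACTH and 1 for ACTH in Siah1a-/-. There, the members at an unadjusted p under 0.05 numbered 7 for genotype after ACTH and 2 for ACTH in wild type. With both wild-type libraries with kidney or liver transcripts left out, the genes called numbered 0 for the treatment average, 7 for the sex label, 21 for genotype after ACTH, 2 for ACTH in Siah1a-/- and 2 for the interaction. Under that setting, the members at an unadjusted p under 0.05 numbered 7 for the treatment average, 16 for the sex label, 2 for genotype in untreated glands, 14 for genotype after ACTH, 2 for ACTH in wild type and 1 for the interaction. In that case, the mitosis median was -0.79 for genotype in untreated glands, 1.82 for ACTH in wild type and -1.28 for the interaction. There, the replication median was 0.72 for ACTH in wild type. With each library left out in turn, the number of genes called over all tested ran from 0 to 253 for the genotype average, 0 to 23 for the treatment average, 1 to 25 for the sex label, 0 to 95 for genotype in untreated glands, 0 to 173 for genotype after ACTH, 0 to 70 for ACTH in wild type and 0 to 11 for the interaction. In the same runs, the number of members at an unadjusted p under 0.05 ran from 8 to 25 for the genotype average, 2 to 11 for the treatment average, 4 to 15 for the sex label, 4 to 19 for genotype in untreated glands, 0 to 26 for genotype after ACTH, 0 to 2 for ACTH in wild type, 1 to 16 for ACTH in Siah1a-/- and 0 to 7 for the interaction. In the same runs, the mitosis median ran from -2.34 to -1.14 for genotype in untreated glands, -3.20 to -0.47 for genotype after ACTH, -0.15 to 1.12 for ACTH in wild type, -0.75 to 1.73 for ACTH in Siah1a-/- and -1.31 to 1.36 for the interaction. In the same runs, the replication median ran from -1.09 to -0.39 for genotype in untreated glands, -0.12 to 0.53 for ACTH in wild type and -0.43 to 0.52 for the interaction. Of the single members, Tyms had a log2 genotype difference of 0.005 without the wild-type ACTH library labelled male (lowest -0.29 with another library left out), and Gins2 one of 0.10 without the Siah1a-/- ACTH library labelled male (lowest -0.68). With only the bases before the start, 6 mitosis windows held CHR-type letters and 4 replication windows held E2F-type letters. Apart from members called by DESeq2 or limma-voom, other results moved by at most 1.5 times or by less than 1 SD. The cause of these shifts was not tested. Where 1 animal is left in a group, it is assumed to vary like the others. The labels give no replicate numbers to use as a block, and animals were matched by sex label, which was a term in the model. With 2 animals a group and 8020112 counts in the shallowest library, genes of a few CPM rest on few counts. No member was at 0 in that library. The members at 0 were in Siah1a-/- libraries of 11964370 to 15182875 counts, and each such value is limited by the depth of its own library.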

Other observations

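The 2 Siah1a-/- glands given ACTH lay at opposite ends of the 4 Siah1a-/- glands for most of the 40 genes. The summed level of the mitosis genes was 78.2 CPM in the gland labelled male and 549 CPM in the gland labelled female, against 449 to 781 CPM in wild type. Among the untreated Siah1a-/- glands it was 126 CPM in the one labelled male and 182 CPM in the one labelled female. Bub3, which carries the checkpoint signal with Bub1 and Bub1b, was at 79.8 ± 3.83 CPM in wild-type glands and 90.2 ± 10.5 CPM in Siah1a-/- glands (SD, n = 4), while Bub1 was at 13.6 ± 2.72 and 2.59 ± 3.44 CPM. Slbp, which binds histone messenger RNA in S phase, was at 81.1 ± 8.01 and 113 ± 26.8 CPM (log2 difference 0.45, SE 0.14, adjusted p = 0.234).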
